A study of Rattus norvegicus with 6 samples.

Results

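The genes described here are the NF-κB subunits and their IκB inhibitors, taken as every row of the deposited table of 30957 rat genes that carries the symbol Rela, Rel, Nfkb1, Relb, Nfkb2, Nfkbia, Nfkbib, Nfkbie, Nfkbiz or Bcl3. Each symbol had 1 row, so the family has 10 members of 30957 genes. RNA-seq was performed on 6 sciatic nerves of Sprague Dawley rats, 3 labelled as injured and 3 as normal, with intact nerves taken from the side opposite the lesion. The methods describe adult male rats, a crush with fine forceps and collection of the proximal stump at 4 days postinjury (dpi), whereas the labels give neither age nor time. No animal carried a transgene or received a drug according to the labels. The members were selected on the known difference in their counts between crushed and intact nerves, so these differences are given below as a description and without p-values. Where a member is said to pass a limit or not, that is also description and no test of the member.

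NF-κB is a family of transcription factors that act as dimers and switch on genes of inflammation, cell survival and adhesion. In resting cells the dimers are held in the cytoplasm by IκB proteins. Signals from TNF, IL-1 or Toll-like receptors activate the IκB kinase (IKK) complex, IκB is degraded and dimers such as RelA-p50 enter the nucleus (the canonical route). A slower, non-canonical route through the kinase NIK converts the precursor p100, the product of Nfkb2, to p52, which pairs with RelB. Several members, Nfkbia above all, are themselves targets of NF-κB and close feedback loops. In injured peripheral nerve, NF-κB activity is known in Schwann cells and in macrophages.

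The libraries held between 24844371 and 27139360 counts on genes, and 12393 genes passed the expression filter and were tested. Several defining markers of the labelled tissue were at or near 0. Of 11 Schwann cell and myelin genes, 4 (Sox10, S100b, Mbp and Mag) had at most 3 counts in every nerve, and the summed FPKM (counts scaled for gene length and library total) of the 11 lay between 18.7 and 19.9 in intact and between 18.25 and 18.45 in crushed nerves. Most of that sum came from Pmp22, with 821 to 968 counts per nerve, and Prx, with 590 to 690. The neuregulin receptor gene Erbb3 was lower in crushed nerves, with a log2 fold change of -0.59 (adjusted p = 0.0222, edgeR). Of 12 macrophage genes, 7 had at most 3 counts in every nerve, with Ptprc, Adgre1, Cd163, C1qa and C1qb at 0, and their summed FPKM was 2.22 to 3.19 in intact and 2.47 to 3.84 in crushed nerves. All 4 neutrophil genes other than S100a8 were at 0, as were Cd3d, Cd8a, Cd79a and Ms4a1 of 7 lymphocyte genes, Dcn, Lum and Col1a2 of 7 fibroblast genes, Cldn5 of 5 endothelial genes, Rgs5 of 5 pericyte genes, Fabp4 of 4 adipocyte genes and Ckm and Mb of 4 muscle genes. The summed FPKM of the fibroblast genes was at most 107 in intact and 83.9 to 95.9 in crushed nerves, with every intact nerve above every crushed nerve, and that of the pericyte genes 24.2 to 26.1 and 19.6 to 19.99. Thy1 supplied most of the fibroblast sum, with a mean of 93.0 FPKM in intact and 79.97 in crushed nerves, and Cspg4 most of the pericyte sum. Lower in crushed nerves was Col1a1 of the fibroblast genes, with a log2 fold change of -0.69 (adjusted p = 0.000662, edgeR). Lower too were Cspg4 and Pdgfrb of the pericyte genes, with -0.35 and -0.77 (adjusted p = 0.00103 and 0.00106, edgeR). Col3a1 had only 21 to 23 counts in intact and 3 to 10 in crushed nerves, so no test of it is given. Pdgfra of the fibroblast genes went the other way, with a mean of 7.11 FPKM in intact and 8.23 in crushed nerves (log2 fold change 0.19). Pdgfra did not pass an adjusted p of 0.05. The part of these markers in the results below was not tested. The 6 proliferation genes, such as Mki67 and Top2a, summed to between 686 and 703 FPKM in intact and between 682 and 694 in crushed nerves. The median gene tested had 12.6 FPKM in intact and 12.8 in crushed nerves. Several Schwann cell and most leukocyte markers at or near 0 beside such proliferation genes go against the label of whole sciatic nerve, and which cells gave the RNA was not tested. Crushed and intact nerve are used below as names from the labels. In such bulk RNA, fewer cells of a type and less RNA per cell cannot be told apart.

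Matches to the κB consensus, the DNA element bound by NF-κB dimers, were looked for on both strands of the RefSeq promoter windows of GRCr8, which run from 250 bases before to 50 bases from the annotated start. Of the members, 9 have a window, all but Relb, and 7 of the 9 windows (77.8%) hold a match, against 7.51% of all 33469 windows and 9.90% of the 9471 windows of genes tested. The windows of the members were richer in G and C, with a median of 69.3% against 61.0% in genes tested. The matches are read from sequence alone, but the members were selected on their counts. Their share is therefore a description and no separate evidence. Capitals mark the match, overlapping matches are joined, and each sequence is read 5′ to 3′ on the strand of the gene.
Nfkbia (chr6:78597084-78597113, strand -): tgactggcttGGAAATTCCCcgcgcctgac
Nfkbie (chr9:22948017-22948046, strand -): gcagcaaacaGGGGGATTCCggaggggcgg
Nfkbiz (chr11:58251698-58251727, strand +): tttttggcctGGGAATTTCCagcgtgtgga
Bcl3 (chr1:88613574-88613603, strand -): tcggcggcagGGGAAGTCCCgcagcccggc
Nfkb2 (chr1:255108344-255108373, strand +): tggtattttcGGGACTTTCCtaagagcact
Nfkb1 (chr2:226805440-226805469, strand -): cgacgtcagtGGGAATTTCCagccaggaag
Rel, nearer match (chr14:101922000-101922029, strand -): gtaggcagcGGGAAATCCCCccccgttccg
Rel, farther match (chr14:101922137-101922166, strand -): cgcgcccccGGGAGCTCCCCgcgcgagcgc

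The match began 31 bases before the start in Nfkbia, 38 in Bcl3, 20 in Nfkb2 and 13 in Nfkbiz, and at base 4 of the transcript in Nfkb1. In Nfkbie it lay farther out, 164 bases before the start, and Rel held matches at 82 and 219 bases. Nfkbiz and Nfkb1 share the same letters within the match. The windows of Rela and Nfkbib held no match, which says only that these letters are not in these windows.

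All 10 members had a higher mean in crushed than in intact nerves, and all passed the expression filter in both groups, with at least 97 counts in every nerve. Members differed widely in size of change, with Relb and Nfkbia more than tripled and Rela and Nfkbib nearly level. At the limits of the study, an absolute log2 fold change above 1 and an unadjusted p under 0.001 in edgeR's quasi-likelihood test, 4 of the 10 members were higher (Relb, Nfkbia, Bcl3 and Nfkbie) and 0 lower, against 0.218% and 0.0646% of all genes tested and 0.282% in either direction. With an adjusted p under 0.05 and no limit on the fold change, 6 of 10 members were higher, adding Nfkb2 and Nfkb1, and 0 lower, against 1.47% and 1.65% of all genes and 3.12% in either direction. In 8 of 10 the nerves of the groups did not overlap, with crushed above intact, against 10.8% of all genes. The median log2 fold change was 0.64 over the members and -0.0017 over all genes tested. Nothing is read from these shares, since the members were chosen with this contrast known. Without intact nerve 3 the number past the limits of the study was 2, because Bcl3 and Nfkbie then lay just under a log2 fold change of 1, and without crushed nerve 1 or crushed nerve 2 it was 3.

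**Figure D1:**
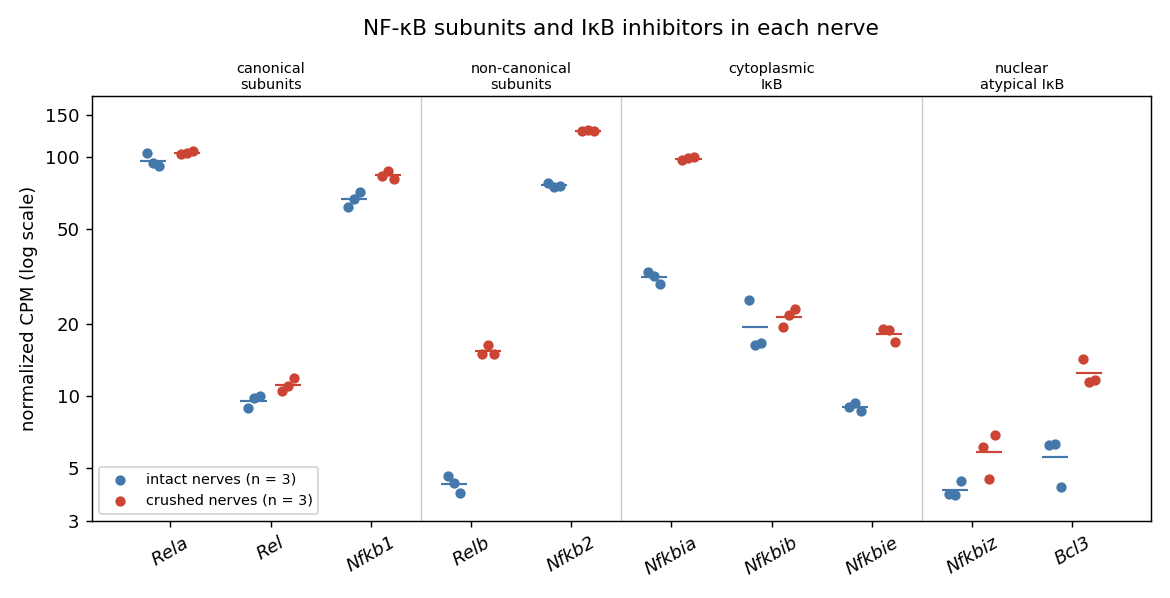
Normalized CPM (log axis) of each member in every nerve, blue for intact and red for crushed nerves, with a line at the mean of 3 nerves. The groups are well apart in Relb, Nfkb2, Nfkbia, Nfkbie and Bcl3 and overlap in Rela and Nfkbib.

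Among the canonical subunits, Rela encodes RelA (p65), the main activating subunit, and lies on chromosome 1 from 220992770 to 221003249 in the coordinates of the deposited table. It had 104, 94.8 and 91.8 normalized CPM (counts scaled to the library total after TMM correction, not to gene length) in intact nerves 1, 2 and 3, against 103, 104 and 106 in crushed nerves 1, 2 and 3. Intact nerve 1 lay within the range of the crushed nerves, so the groups overlapped. The log2 fold change of Rela was 0.11 (standard error 0.0528), at place 2254 of 12393 genes in descending order.

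Rel, which encodes c-Rel, a subunit best known from lymphocytes, lies on chromosome 14 from 108491069 to 108509892. Its normalized CPM was 8.89, 9.81 and 10.05 in intact nerves 1, 2 and 3, against 10.5, 11.0 and 11.9 in crushed nerves 1, 2 and 3. The groups did not overlap, but the nearest nerves, intact 3 and crushed 1, were close to each other. The log2 fold change of Rel was 0.22 (standard error 0.0942) and it did not pass an adjusted p of 0.05.

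Nfkb1, the gene of p105, from which the DNA-binding subunit p50 is made, lies on chromosome 2 from 240773456 to 240866689. Intact nerves 1, 2 and 3 had 61.8, 67.2 and 71.5 normalized CPM, and crushed nerves 1, 2 and 3 had 83.9, 87.4 and 81.1. The groups did not overlap. The difference of 0.33 on the log2 scale (standard error 0.0593) passed an adjusted p of 0.05 but no longer did without crushed nerve 1 or without crushed nerve 2, with log2 fold changes of 0.33 and 0.30.

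Of the non-canonical subunits, Relb showed the largest log2 fold change of the members. It encodes RelB, the partner of p52, and lies on chromosome 1 from 80517411 to 80544825. Its normalized CPM was 4.62, 4.32 and 3.91 in intact nerves 1, 2 and 3, from 117, 114 and 97 counts, and 15.0, 16.3 and 15.0 in crushed nerves 1, 2 and 3, from 410, 443 and 376 counts. The lowest crushed nerve was far above the highest intact nerve. The level of Relb was 3.603-fold higher in crushed nerves, or 1.85 on the log2 scale (standard error 0.10), at place 7 of 12393 genes.

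Nfkb2, the gene of p100 and p52, lies on chromosome 1 from 266053002 to 266059256. It had 78.3, 75.4 and 76.2 normalized CPM in intact nerves 1, 2 and 3, against 129, 130.4 and 129 in crushed nerves 1, 2 and 3. Nerves of a group were nearly alike, with a standard deviation of log2 CPM of 0.0107 in crushed nerves, which 97.0% of genes tested exceeded. Nfkb2 was 1.69-fold higher in crushed nerves, or 0.75 on the log2 scale (standard error 0.0411), which stayed under the fold limit of the study.

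Among the cytoplasmic inhibitors, Nfkbia encodes IκBα, the inhibitor that is degraded and then resynthesized fastest after a stimulus. It lies on chromosome 6 from 76267228 to 76270457. Intact nerves 1, 2 and 3 gave 839, 844 and 729 counts of Nfkbia, or 33.1, 32.0 and 29.4 normalized CPM. Crushed nerves 1, 2 and 3 gave 2668, 2689 and 2506 counts, or 97.7, 99.0 and 99.98 normalized CPM. The crushed nerves were again closely grouped and stood far above the intact nerves. The fold was 3.14, and the log2 fold change of 1.65 (standard error 0.0549) was at place 12 of all genes tested.

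Nfkbie encodes IκBε, a slower feedback inhibitor, and lies on chromosome 9 from 17828408 to 17835240. Its normalized CPM was 9.05, 9.40 and 8.68 in intact nerves 1, 2 and 3, against 19.1, 18.9 and 16.8 in crushed nerves 1, 2 and 3. The groups were clearly apart. The log2 fold change of 1.01 (standard error 0.0868), a 2.02-fold difference, sat at the fold limit of the study and was between 0.98 and 1.07 with each nerve left out in turn.

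Nfkbib, which encodes IκBβ, an inhibitor not known for rapid feedback, lies on chromosome 1 from 86941074 to 86948845. Its normalized CPM was 25.2, 16.3 and 16.7 in intact nerves 1, 2 and 3, against 19.5, 21.8 and 23.2 in crushed nerves 1, 2 and 3. Intact nerve 1 was higher than every crushed nerve, while intact nerves 2 and 3 were lower than all of them. On the log2 scale Nfkbib differed by 0.15 (standard error 0.149). Without intact nerve 1 it was 0.38 and passed an adjusted p of 0.05, and without intact nerve 2 it was 0.035, so the value rests on which intact nerves are used.

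Nfkbiz and Bcl3 encode IκBζ and Bcl-3, atypical IκB proteins that act in the nucleus as coregulators of p50 and p52 dimers. Nfkbiz, on chromosome 11 from 47243342 to 47271487, had 3.87, 3.86 and 4.398 normalized CPM in intact nerves 1, 2 and 3, against 6.15, 4.49 and 6.90 in crushed nerves 1, 2 and 3. Crushed nerve 2 was barely above intact nerve 3. The log2 fold change of Nfkbiz was 0.53 (standard error 0.162), and 0.69 without crushed nerve 2, when it passed an adjusted p of 0.05.

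Bcl3, on chromosome 1 from 80730499 to 80744831, had 6.24, 6.29 and 4.16 normalized CPM in intact nerves 1, 2 and 3, from 158, 166 and 103 counts. In crushed nerves 1, 2 and 3 it had 14.2, 11.5 and 11.7, from 389, 311 and 294 counts. Intact nerve 3 was low and crushed nerve 1 high for their groups, but no nerves overlapped. The log2 fold change of Bcl3 was 1.16 (standard error 0.153), a 2.24-fold difference that was 0.996 on the log2 scale without intact nerve 3.

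**Figure D2:**
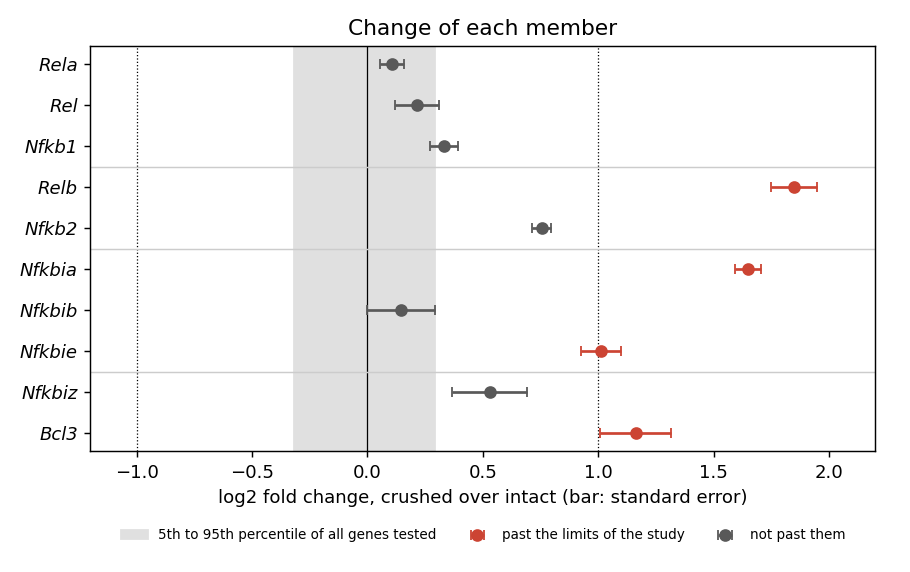
Log2 fold change of each member, crushed over intact, with its standard error. The grey band spans the 5th to 95th percentile of all genes tested (-0.319 to 0.294), dotted lines mark the fold limit of the study, and the 4 members past its limits are red.

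By group, the non-canonical subunits had a median log2 fold change of 1.3, the cytoplasmic inhibitors 1.01, the nuclear inhibitors 0.85 and the canonical subunits 0.22. The groups are not uniform. Nfkbib stood apart from the other cytoplasmic inhibitors, and Nfkb2 moved much less than Relb.

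Relb and Bcl3 are close neighbours on chromosome 1, with 185674 bases between the end of Relb and the start of Bcl3. The table lists 9 genes between them, of which 4 were tested. None of the 4 passed an adjusted p of 0.05 in edgeR's test, and their log2 fold changes lay between -0.81 and 0.21. No gene of the table overlaps a member, so the counts of the members are not shared with an annotated overlapping gene.

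Levels were compared between members on the deposited FPKM, which corrects for gene length. In intact nerves Rela was highest with 39.4 ± 2.52 FPKM (SD, n = 3), followed by Nfkb2 with 24.8 ± 0.429, Nfkbia with 20.01 ± 1.14, Nfkb1 with 17.2 ± 1.31 and Nfkbib with 13.8 ± 3.53. Nfkb1 and Nfkbib did not differ beyond their spread, and Nfkbia and Nfkb1 were nearly touching. Further down came Nfkbie with 5.61 ± 0.216, Rel with 5.38 ± 0.362, Bcl3 with 2.93 ± 0.635, Relb with 1.68 ± 0.134 and Nfkbiz with 0.916 ± 0.0722 FPKM, with Nfkbie and Rel overlapping. The median gene tested had 12.6 FPKM in intact nerves, so Rela lay at percentile 80.1 of genes tested and Relb at percentile 14.2.

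In crushed nerves the order opened with Nfkbia, at 63.6 ± 0.736 FPKM (SD, n = 3) and percentile 88.3 of genes tested. Rela with 43.0 ± 0.707 and Nfkb2 with 42.4 ± 0.268 came next and overlapped, whereas in intact nerves they were well apart. Nfkb1 had 21.9 ± 0.812, Nfkbib 15.5 ± 1.33 and Nfkbie 11.5 ± 0.785 FPKM. Bcl3 with 6.66 ± 0.825, Rel with 6.33 ± 0.420 and Relb with 6.14 ± 0.293 overlapped as neighbours, and Nfkbiz stayed lowest with 1.34 ± 0.284.

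Ratios of FPKM within a nerve, which do not depend on the library's scaling, showed the shift between members. The ratio of Nfkb2 to Nfkb1 was 1.59, 1.41 and 1.34 in intact nerves 1, 2 and 3, against 1.93, 1.88 and 2.0 in crushed nerves 1, 2 and 3. For Relb over Rela the ratio was 0.0427 ± 0.00141 in intact and 0.143 ± 0.00784 in crushed nerves (SD, n = 3). No nerves overlapped in either ratio. Relb and Nfkb2 together supplied 29.9% ± 0.0920 of the summed FPKM of the 5 subunits in intact and 40.5% ± 0.263 in crushed nerves.

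The RNA of the cytoplasmic IκB genes relative to that of the subunit genes moved as well, with Nfkb1 and Nfkb2 counted only as subunits. The summed FPKM of the 3 cytoplasmic IκB genes was 0.493, 0.432 and 0.411 times that of the 5 subunits in intact nerves 1, 2 and 3, against 0.751, 0.754 and 0.764 times in crushed nerves 1, 2 and 3. Nfkbia supplied 51.0% ± 3.41 of the IκB sum in intact and 70.2% ± 0.456 in crushed nerves (SD, n = 3). Against Rela, the main subunit that IκBα binds, Nfkbia stood at 0.508 ± 0.0165 in intact and 1.48 ± 0.00938 in crushed nerves. These are ratios of RNA and give no protein levels.

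**Figure D3:**
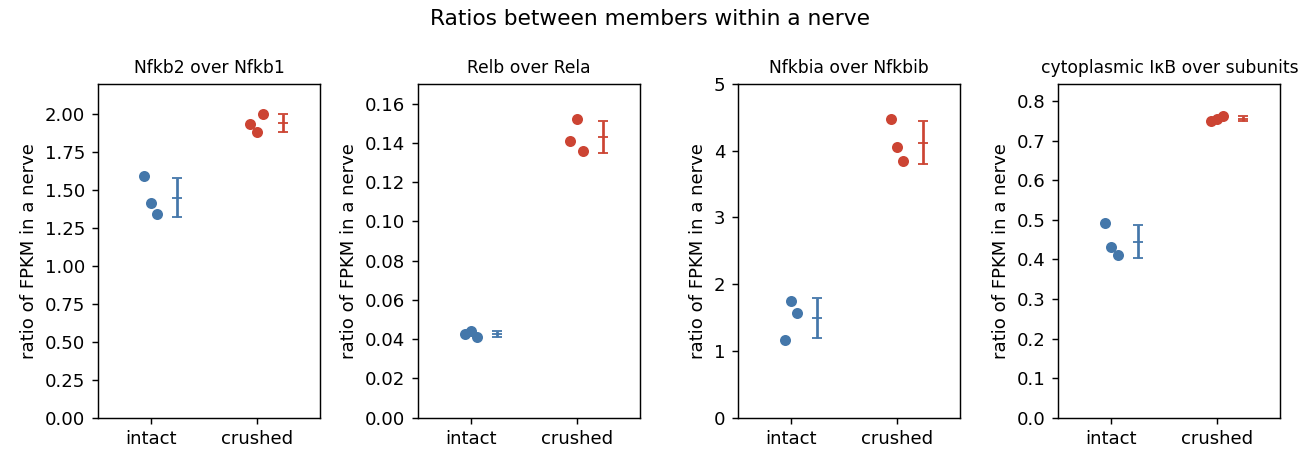
Ratios of FPKM within each nerve, points for nerves and bars for mean and SD of 3 nerves, each panel starting at 0. Nfkb2 over Nfkb1, Relb over Rela, Nfkbia over Nfkbib and cytoplasmic IκB over subunits were all higher in every crushed nerve than in every intact nerve.

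For each member past the limits of the study, the most similar genes were sought by the root mean square difference of log2 CPM, centred per gene, over the 6 nerves among 12388 genes. For Relb these were Birc3 (difference 0.0862), Nfkbia (0.110) and Ccl2 (0.150), and for Nfkbia they were Birc3 (0.0898), Relb (0.110) and Cp (0.112). Nfkbie was nearest to Angptl4 (0.0770), Tnfaip3 (0.0896) and Cxcl12 (0.0910). The nearest genes to Bcl3 were less close, with Cx3cl1 (0.138), AC110474.1 (0.159) and a copy of Metazoa_SRP (0.169), a multicopy RNA whose counts are uncertain. This difference includes the gap between crushed and intact nerves, the contrast on which the members were chosen. The neighbours of Relb (log2 fold change 1.85) thus had log2 fold changes of 1.79, 1.65 and 1.77. No shared regulation is read from the ranking.

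The rest of the pathway was described with 5 lists, which were drawn up with earlier results of these data known. Calls on these lists are therefore description and no test. The IKK and upstream kinases were nearly level. Of 12 tested, 1, Ripk2, the kinase downstream of NOD receptors, was higher at an adjusted p under 0.05, with a log2 fold change of 0.39 (adjusted p = 0.00831, edgeR's quasi-likelihood test), and 0 were lower, although 2 had a lower value at an unadjusted p under 0.05 and DESeq2 called 1 lower. The median log2 fold change of the list was 0.034. Map3k14, which encodes NIK and was singled out after its values were seen, had 38.9 CPM in intact and 32.6 in crushed nerves, a log2 fold change of -0.26 (adjusted p = 0.0704 from the same test). None of 9 tested genes for other IκB-like proteins and IκB turnover was called in either direction by edgeR or DESeq2. At an unadjusted p under 0.05 in edgeR there were 0, against 832 higher and 1177 lower over all genes tested. Nfkbid, which encodes IκBNS, had only 6 to 11 counts per nerve and was not tested, and neither was Cd40, with 0 counts in every nerve.

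Receptors and adaptors changed little, with named exceptions. Of 13 tested on the canonical route, 2 were higher at an adjusted p under 0.05 in edgeR, against 1.47% of all genes. They were Tnfrsf1b, the second TNF receptor, by a log2 fold change of 0.35 (standard error 0.0584), and Il1r1, the IL-1 receptor, by 0.22 (standard error 0.0492). The median of that list was 0.086, with 0 lower by edgeR or DESeq2. At an unadjusted p under 0.05 in edgeR 1 was lower, against 1177 of all 12393 genes tested. On the non-canonical route 3 of 8 were higher, against 1.47% of all genes, and the median was 0.061. Only 4 of the 8 had a positive log2 fold change, and the lowest was -0.20. Birc3, which encodes cIAP2, had a log2 fold change of 1.79 (standard error 0.0981). Traf3, an adaptor needed for the degradation of NIK, had 0.40 (standard error 0.0535) and Traf2 0.28 (standard error 0.0523). On this list 0 genes were lower by edgeR or DESeq2. At an unadjusted p under 0.05 in edgeR 1 was lower, against 1177 of all 12393 genes tested.

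Of the known NF-κB target genes, 20 of 33 matched genes were tested and 12 were higher at an adjusted p under 0.05, against 1.47% of all genes, with a median log2 fold change of 0.38. By edgeR or DESeq2 0 were lower. At an unadjusted p under 0.05 in edgeR 0 were lower, against 1177 of all 12393 genes tested. The largest changes were in Ccl2, a chemokine that attracts monocytes, by 1.77 on the log2 scale (standard error 0.126), Mmp9, a gelatinase, with 1.74 (standard error 0.241), and Cxcl1, which attracts neutrophils, with 1.48 (standard error 0.0824). Mmp9 rests on few reads, with 13 to 77 counts per nerve. Some of the best known inflammatory targets were absent, with Il1b, Ccl20 and Bcl2a1 at 0 counts in all 6 nerves.

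**Figure D4:**
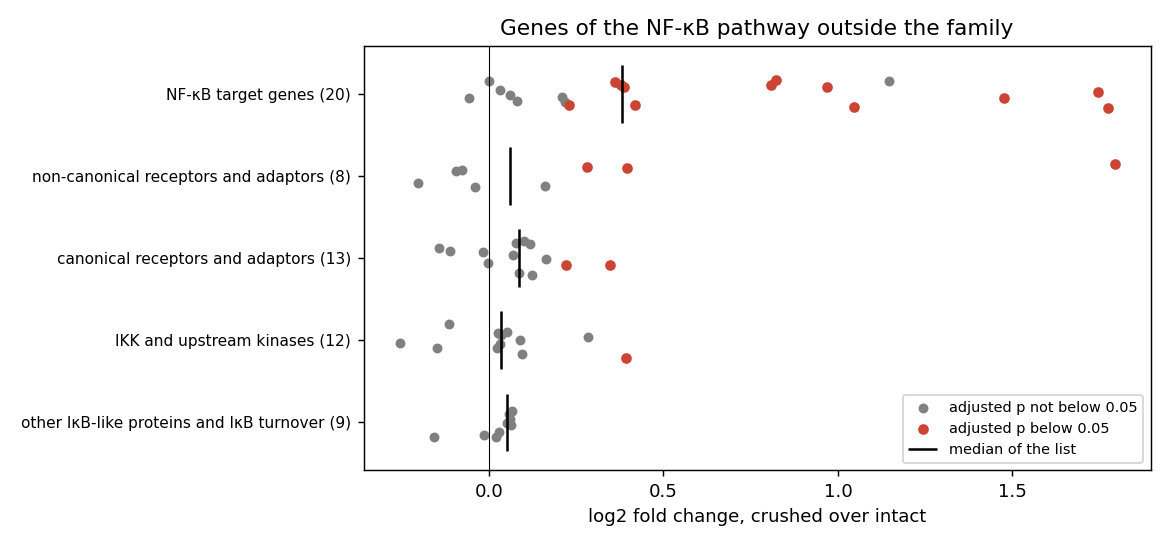
Log2 fold change of the genes tested on each of the 5 pathway lists outside the family, with the number tested in brackets, red for an adjusted p below 0.05 and a line at the list's median. The called genes lie to the right of 0 on every list that has any, and 12 of 20 target genes were called.

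The κB matches were also counted outside the family. Of the genes higher at an adjusted p under 0.05 other than the members, 125 have a promoter window and 31 of them (24.8%) hold a match. The share was 8.57% of 140 genes that were lower and 10.1% of 8191 genes not called, at a median G and C content of 60.7%, 64.7% and 61.0%. Of the target genes with a window, 4 of 8 that were higher and 2 of 6 that were not called held a match. These are counts of letters in windows and no test was made of them.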

How the data were processed

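For each Ensembl gene, the deposited table gives a raw count in every nerve, together with FPKM values of the authors that equal those counts divided by gene length and by the total on genes. The submitters' processing notes name HISAT2, StringTie 1.3.0 and the build Rnor_6.0. The counting rule, strand setting and annotation release are not given in the sources used here. RNase R, an enzyme that digests linear RNA, is part of the protocol in the methods (with TRIzol and rRNA removal) but not of that in the labels, so levels of mRNA may depend on a step that is not settled. The methods and the series text also place the lesion on different sides.

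The 12 value columns were matched to nerves by sample title, and 0 others were present. All genes and all 6 nerves entered 1 quasi-likelihood fit of the counts in edgeR 4.0.16 (under R 4.3.3, with limma 3.58.1 for the alternatives), after filterByExpr and TMM scaling and without a block for the replicate number, with Benjamini-Hochberg adjustment over 12393 genes. The standard error comes from the test statistic. Alternatives were the replicate block, DESeq2 1.42.0, library totals without TMM, no filter, limma on log2(FPKM + 0.1) and on log2(FPKM + 1), and each nerve left out. The calculation was tested on simulated counts. Depth was between 24844371 and 27139360 counts per nerve, so that 3 counts were 0.110 to 0.121 normalized CPM. That is a change of unit for a fixed count and does not measure spread between nerves.

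The members and all lists were chosen with earlier results of these data known. Calls of listed genes, and the p-values given for marker genes, are therefore description. The genes named are the 10 members and the 3 most similar genes of each member past the study's limits. Of each pathway list, at most 3 called genes in each direction by size of change and up to 3 at or near 0 are named. Map3k14 and the marker genes of cell types were named outside this rule. Of 85 listed pathway genes, those with no row or several rows were left out. Promoter windows come from RefSeq (GRCr8), whose coordinates were not mixed with those of the table. The series text calls the 3 nerves of a group biological replicates, and the labels do not say whether nerves with the same number came from the same rat. A marker gene of the Schwann cell list is not reported here.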

Additional observations from a re-analysis of the deposited data

How the results depend on the processing

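All 10 members kept a positive log2 fold change in all 12 alternatives. The number of members past the limits of the study was 4 in the replicate block, with DESeq2, with library totals, without the filter and with limma on log2(FPKM + 0.1), and 2 with limma on log2(FPKM + 1), whose pseudocount shrinks low values by construction. With each nerve left out it was between 2 and 4. The number higher at an adjusted p under 0.05 was 6 in every alternative with all nerves and between 5 and 7 with a nerve left out, and 0 members were lower. Of the target genes, 10 to 12 were higher with all nerves and 9 to 11 with a nerve left out. The deviations of same-numbered nerves had correlations of -0.0148, 0.00586 and 0.0756 across genes. With 3 nerves per group these cannot show whether nerves were paired, and the labels do not say. The main fit is unpaired and the paired fit is given here as an alternative. With the replicate block 6 members and 10 target genes were higher. Over all genes, 35 passed the limits of the study, but 14 with limma on log2(FPKM + 1) and 41 without the filter. At an adjusted p under 0.05 there were 387, against 242 and 256 with limma. Without crushed nerve 1, 2 or 3 there were 177, 185 and 204, and without intact nerve 2 there were 253. The number was higher with DESeq2, at 511, and without intact nerve 1, at 400. The cause was not tested. The lowest member count was 97. Standard errors of the members mostly rose as their counts fell, from 0.0411 in Nfkb2 to 0.162 in Nfkbiz. The clearest exception was Nfkbib, with 0.149.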
